A study of Caenorhabditis elegans with 6 samples.

Results

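The genes described here fold, check, degrade, glycosylate and export secreted proteins at the endoplasmic reticulum (ER) of Caenorhabditis elegans. They form a list of 32 genes taken by name, of 45132 genes with a value in each library: 4 unfolded protein sensors and their effector, 15 chaperones and folding enzymes, 5 degradation genes, 4 oligosaccharyltransferase subunits and 4 COPII coat genes. All but der-2, which the values list under its sequence name R151.6, were found under their own name. RNA was sequenced from whole 5-day-old adult N2 worms, the wild-type laboratory strain. In the vit-5 RNAi group (3 libraries), larvae received RNAi against vit-5, which encodes a yolk protein. In the control group (3 libraries), larvae received L4440, the empty RNAi vector, which targets no worm gene. Both groups were moved to OP50 bacteria as young adults and were otherwise alike. Neither the number of worms per library nor whether replicates were separate cultures is given, so the p-values rest on variation among these 6 libraries alone, part or all of which may be technical.

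Proteins that enter the ER are folded by Hsp70 and Hsp90 chaperones, by lectin chaperones that read sugar chains, and by enzymes that form disulfide bonds. Misfolded proteins are detected by IRE-1, PEK-1 and ATF-6 and returned to the cytosol for destruction, while folded cargo leaves in COPII vesicles. In the adult hermaphrodite the intestine secretes large amounts of vitellogenin for the oocytes, and the hypodermis secretes cuticle collagens, so both tissues carry a heavy secretory load.

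The target of the RNAi, vit-5, had 116, 51.6 and 22.8 FPKM (fragments counted on a transcript, scaled to its length and to library size) in vit-5 RNAi libraries, against 2335, 1396 and 1573 FPKM in control libraries. Depth is not stated. Spacing of the lowest values gave rough depths of 16900000 to 19700000 fragments in vit-5 RNAi libraries and 19900000 to 21200000 in control libraries, and only 29.6% to 31.8% of those values lay within 0.1 of a whole fragment. Differences were tested by limma on log2(FPKM + 1) over the 12908 genes that reached 1 FPKM in 3 or more libraries, and all 32 genes of the list passed that filter. A positive fold change means higher in vit-5 RNAi libraries, and this scale understates the change of genes at low FPKM. Over all tested genes the median fold change was 0.34 (log2), so most values are also given after median-of-ratios scaling, which lowers that median to 0.03. The larval cuticle collagen rol-6 differed widely within each group, with 3.15, 27.8 and 202 FPKM in vit-5 RNAi libraries, against 3.41, 107 and 117 FPKM in control libraries. The listed collagen dpy-13 did so too, while sqt-3 did not, both named after their values were seen. Levels of sqt-3 were 132, 119 and 118 FPKM in vit-5 RNAi libraries, against 105, 93.5 and 97.3 FPKM in control libraries, without overlap.

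**Figure D1:**
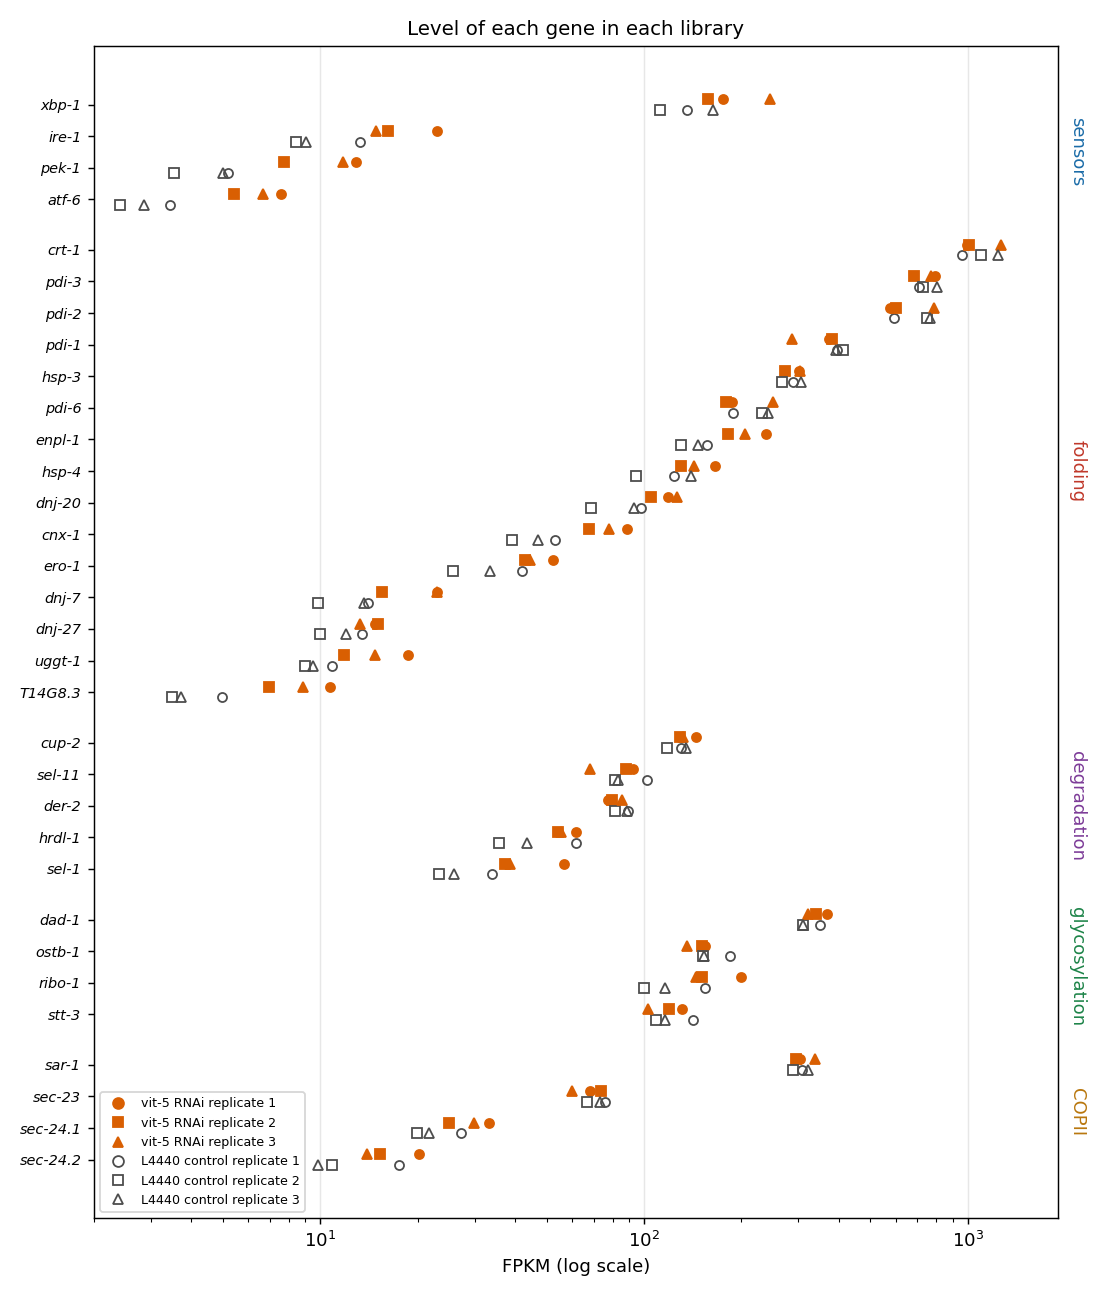
FPKM of the 32 genes (log axis), 1 point per library, with vit-5 RNAi libraries filled and drawn above open L4440 control libraries, and genes grouped by role and ordered by control mean. The 3 sensors ire-1, pek-1 and atf-6 lie at 5.40 to 23 FPKM in vit-5 RNAi libraries and 2.41 to 13.2 FPKM in control libraries, far below crt-1 at 999 to 1266 and 958 to 1239 FPKM.

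The 3 sensor genes, T14G8.3 and the calnexin gene cnx-1 had higher values in every vit-5 RNAi library than in any control library, while the abundant folding genes crt-1, pdi-3 and hsp-3 and the COPII genes overlapped their control values. By limma 0 of the 32 genes had an adjusted p under 0.05, against 0% of all tested genes, and the smallest adjusted p in the list was 0.122. Even the RNAi target vit-5 did not pass, with an adjusted limma p of 0.0552, the smallest of all tested genes. An adjusted p above 0.05 here therefore does not show that a gene is unchanged. The count of genes that passed depended on the model. With same-numbered libraries as blocks, 13 of the 32 genes passed, all higher, and 3679 of the 12908 tested genes passed as higher. With an unadjusted limma p under 0.05, 10 of the 32 genes (31.2%) were higher, against 26.2% of all tested genes, and 0 were lower, against 0.906%. The count of 10 was 5 when vit-5 RNAi replicate 1 or control replicate 2 was left out. Of the 12908 tested genes 2260 and 1444 were higher in those fits, against 3378 with no library left out. All 3 vit-5 RNAi values exceeded all control values for 11 genes (34.4%), against 30.8% of tested genes, and lay below them for 1 gene, pdi-1 (3.12%), against 3.15%. These shares are near the background. The list's median was 0.31 on the log2 scale, against 0.34 for all tested genes.

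After median-of-ratios scaling, 4 genes were higher at an unadjusted limma p under 0.05 (12.5%, against 9.23% of tested genes) and 9 were lower (28.1%, against 12.1%). The 4 higher genes were pek-1, atf-6, T14G8.3 and cnx-1. The 9 lower ones were the BiP gene hsp-3, the isomerases pdi-1 and pdi-3, the degradation genes sel-11 and der-2, the oligosaccharyltransferase subunits stt-3 and ostb-1, and the coat genes sar-1 and sec-23. In this scaling 0 genes passed the adjusted threshold, and the list's median was -0.05. The sign of 9 genes depended on the scaling: hsp-3, hsp-4, dnj-27, pdi-3, hrdl-1, cup-2, dad-1, sar-1 and sec-24.1 were above 0 as deposited and below 0 after median-of-ratios scaling.

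**Figure D2:**
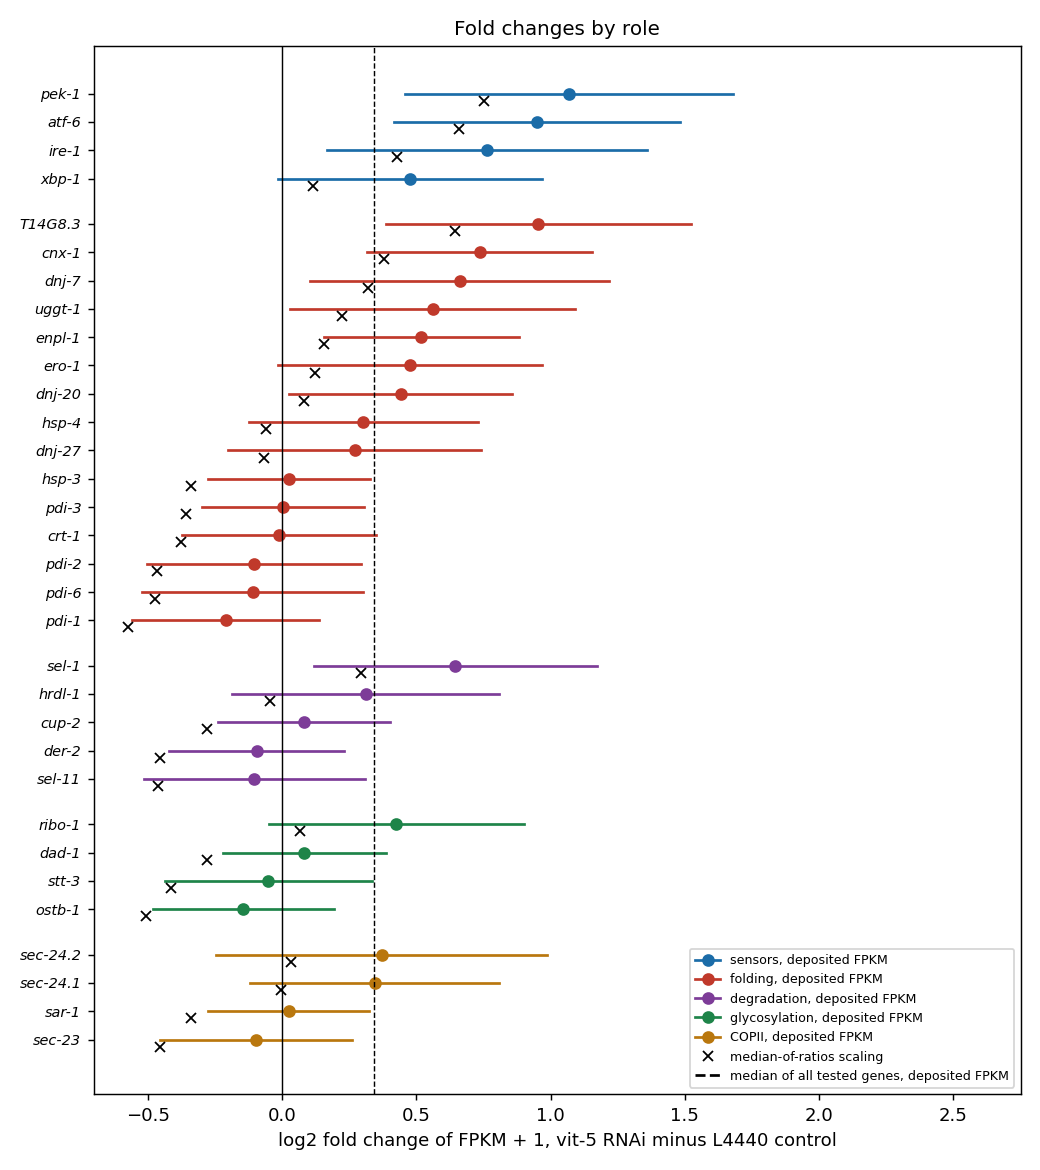
Log2 fold change of FPKM + 1 (vit-5 RNAi minus L4440 control) for the 32 genes by role; dots are the deposited FPKM with 95% limma intervals, crosses the value after median-of-ratios scaling, and the dashed line the median of all tested genes, 0.34. The intervals of 10 genes exclude 0, all above it, and those of pek-1 (1.07), atf-6 (0.95) and T14G8.3 (0.95) lie wholly to the right of the dashed line, whereas 9 genes change sign between dot and cross.

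The sensors sit in the ER membrane and start the unfolded protein response. The gene pek-1 (gene ID 181334; WBcel235, chromosome X, 11410176 to 11414887) encodes the PERK homologue, a kinase of the translation factor eIF2 alpha. It had 12.9, 7.70 and 11.7 FPKM in vit-5 RNAi libraries, against 5.17, 3.54 and 5.00 FPKM in control libraries. The groups did not overlap, and the ratio of means was 2.36. Its log2 fold change was 1.07 (SE 0.27, limma adjusted p 0.122), or 0.75 after median-of-ratios scaling. The gene atf-6 (181405; X, 12480948 to 12484904), which encodes a membrane-tethered transcription factor, showed a similar separation. Its values were 7.55, 5.40 and 6.67 FPKM in vit-5 RNAi libraries, against 3.44, 2.41 and 2.86 FPKM in control libraries, a ratio of means of 2.25. Its log2 fold change was 0.95 (SE 0.23, limma adjusted p 0.122), or 0.66 after median-of-ratios scaling.

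IRE-1 is a kinase and ribonuclease that cuts the xbp-1 transcript, and the spliced transcript encodes the active factor XBP-1. The gene ire-1 (174305; II, 8112243 to 8124910) had 23, 16.2 and 14.8 FPKM in vit-5 RNAi libraries, against 13.2, 8.39 and 9.02 FPKM in control libraries. Every vit-5 RNAi value again lay above every control value. Its log2 fold change was 0.76 (SE 0.26, limma adjusted p 0.136), or 0.43 after median-of-ratios scaling. Its target xbp-1 (175541; III, 4193809 to 4195358) had higher FPKM than ire-1 in every library, with 176, 158 and 246 FPKM in vit-5 RNAi libraries, against 136, 112 and 164 FPKM in control libraries. The groups overlapped, since vit-5 RNAi replicate 2 lay below control replicate 3. For xbp-1 the log2 fold change was 0.48 (SE 0.21, limma adjusted p 0.193), or 0.12 after median-of-ratios scaling. A single FPKM per gene does not separate spliced from unspliced xbp-1. Of these 4 genes, 3 (75%, against 26.2% of tested genes) were higher at an unadjusted limma p under 0.05 in the deposited FPKM, and their median was 0.86 (log2). The count was 2 after median-of-ratios scaling (50%, against 9.23% of tested genes), with a median of 0.54. With the length trend removed it was also 2 (50%, against 7.47%), with a median of 0.38. Whole worms were sequenced, so a change in the number of cells of a type and a change in RNA per cell cannot be told apart. Of the 4 intestinal markers, elt-2 (12.2 to 15.1 FPKM in vit-5 RNAi, 7.67 to 11.2 FPKM in control libraries) and ges-1 (22.6 to 32.7 and 10.5 to 16.2 FPKM) were separated in the same way, while act-5 and ifb-2 overlapped. Their summed level ran from 545 to 835 FPKM in vit-5 RNAi libraries and from 517 to 632 FPKM in control libraries, and none of the 4 was at 0. Their part in the sensor values was not tested.

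Among the chaperones, the ER Hsp70 BiP is encoded by a pair of paralogues, hsp-3 and hsp-4. In worms hsp-4 is the classic inducible target of the IRE-1 branch, whereas hsp-3 is expressed at a high basal level. The sources used here do not say how reads matching both were assigned. The gene hsp-3 (180880; X, 6089033 to 6091785) had 301, 273 and 303 FPKM in vit-5 RNAi libraries, against 288, 267 and 306 FPKM in control libraries. These ranges overlapped almost fully. Its log2 fold change was 0.02 (SE 0.13, 95% interval -0.28 to 0.33, limma adjusted p 0.919) as deposited and -0.34 after median-of-ratios scaling. The gene hsp-4 (174203; II, 7350119 to 7352518) had 166, 130 and 143 FPKM in vit-5 RNAi libraries, against 124, 94.7 and 139 FPKM in control libraries. Only 1 vit-5 RNAi library, replicate 2, fell inside the control range. For hsp-4 the log2 fold change was 0.30 (SE 0.19, 95% interval -0.12 to 0.73, limma adjusted p 0.311) as deposited and -0.06 after median-of-ratios scaling.

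Larger fold changes were seen for T14G8.3 and the ER Hsp90. T14G8.3 (181422; X, 12861237 to 12870037) is annotated only as an uncharacterized protein beside the values. It had 10.7, 6.94 and 8.87 FPKM in vit-5 RNAi libraries, against 4.97, 3.48 and 3.72 FPKM in control libraries, without overlap. Its log2 fold change was 0.95 (SE 0.25, limma adjusted p 0.122), or 0.65 after median-of-ratios scaling. The ER Hsp90 endoplasmin, enpl-1, averaged 208 ± 28.3 FPKM in vit-5 RNAi libraries and 145 ± 13.7 FPKM in control libraries (SD, n = 3 each), also without overlap. For enpl-1 the log2 fold change was 0.52 (SE 0.16, limma adjusted p 0.124), but 0.16 after median-of-ratios scaling.

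DnaJ co-chaperones deliver clients to Hsp70. The P58IPK homologue dnj-7 averaged 20.5 ± 4.31 FPKM in vit-5 RNAi libraries and 12.5 ± 2.30 FPKM in control libraries. The co-chaperone dnj-20 averaged 117 ± 10.8 and 86.5 ± 15.7 FPKM in the same order, and dnj-27, which carries thioredoxin domains, 14.4 ± 1.00 and 11.8 ± 1.73 FPKM (SD, n = 3 each). Values of dnj-7 and dnj-20 did not overlap between the groups, with log2 fold changes of 0.66 and 0.44 and limma adjusted p of 0.147 and 0.167. Those of dnj-27 overlapped (0.27, adjusted p 0.405). After median-of-ratios scaling the 3 values were 0.32, 0.08 and -0.07.

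Calnexin and calreticulin are lectins that hold glycoproteins with a single glucose on their sugar chain, the first in the membrane and the second in the lumen. The calnexin gene cnx-1 (176390; III, 9814364 to 9817137) had 88.4, 67.7 and 77.7 FPKM in vit-5 RNAi libraries, against 53.2, 39.2 and 47.2 FPKM in control libraries. The groups were clearly apart, and the ratio of means was 1.68. Its log2 fold change was 0.74 (SE 0.18, limma adjusted p 0.122), or 0.38 after median-of-ratios scaling. The calreticulin gene crt-1 (178997; V, 6098992 to 6100542) was the most abundant of the 32, with 999, 1011 and 1266 FPKM in vit-5 RNAi libraries, against 958, 1104 and 1239 FPKM in control libraries. The ranges coincided, and the log2 fold change of crt-1 was -0.01 (SE 0.16, 95% interval -0.37 to 0.35, limma adjusted p 0.969), or -0.38 after median-of-ratios scaling. UGGT-1, the glucosyltransferase that sends unfolded glycoproteins back to these lectins, had the longest annotated transcript of the list, 4723 bases. It averaged 15.1 ± 3.42 FPKM in vit-5 RNAi libraries and 9.78 ± 1.00 FPKM in control libraries (SD, n = 3 each), without overlap. For uggt-1 the log2 fold change was 0.56 (SE 0.23, limma adjusted p 0.168), or 0.23 after median-of-ratios scaling.

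Protein disulfide isomerases form and rearrange disulfide bonds, and PDI-2 is also the beta subunit of the prolyl 4-hydroxylase that modifies collagen. The 4 isomerase genes had log2 fold changes between -0.21 and 0.00, all below the median of tested genes. The most abundant, pdi-3 (172433; I, 7015912 to 7020790), had 794, 682 and 770 FPKM in vit-5 RNAi libraries, against 708, 726 and 804 FPKM in control libraries. The groups overlapped, and its fold change of 0.00 on the log2 scale (SE 0.13, limma adjusted p 0.988) was -0.36 after median-of-ratios scaling. Levels of pdi-2 averaged 655 ± 115 FPKM in vit-5 RNAi libraries and 701 ± 96.5 FPKM in control libraries, and those of pdi-6 averaged 206 ± 38.9 and 221 ± 28.0 FPKM (SD, n = 3 each). Neither gene separated the groups. For pdi-1 the means were 347 ± 52.9 FPKM in vit-5 RNAi libraries and 399 ± 10.8 FPKM in control libraries (SD, n = 3 each). It was the only gene of the 32 whose 3 vit-5 RNAi values all lay below all control values, yet its fold change of -0.21 on the log2 scale (SE 0.15, limma adjusted p 0.384) did not pass. The oxidase ERO-1 returns these isomerases to their active form. Its gene averaged 46.6 ± 5.14 FPKM in vit-5 RNAi libraries and 33.7 ± 8.18 FPKM in control libraries (SD, n = 3 each), without overlap. For ero-1 the log2 fold change was 0.48 (SE 0.21, limma adjusted p 0.195), or 0.12 after median-of-ratios scaling. Of the 15 folding genes, 6 (40%, against 26.2% of tested genes) were higher and 0 lower with an unadjusted limma p under 0.05 in the deposited FPKM, and their median was 0.30. After median-of-ratios scaling 2 were higher and 3 lower (13.3% and 20%, against 9.23% and 12.1% of tested genes), with a median of -0.06. With the length trend removed 2 were higher and 4 lower (13.3% and 26.7%, against 7.47% and 10.2% of tested genes).

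ER-associated degradation sends misfolded proteins through a membrane complex around the ubiquitin ligase HRD1. Its worm partner genes were not uniform. SEL-1, the SEL1L homologue that brings substrates to the ligase, was encoded by the gene with the largest fold change of the 5. The gene sel-1 (179720; V, 12560732 to 12563383) had 56.5, 37.2 and 38.7 FPKM in vit-5 RNAi libraries, against 33.9, 23.2 and 25.9 FPKM in control libraries. These did not overlap, and the log2 fold change was 0.65 (SE 0.23, limma adjusted p 0.141), or 0.29 after median-of-ratios scaling. The ligase gene itself, sel-11 (179612; V, 11767328 to 11769899), had 92.7, 87.7 and 68.1 FPKM in vit-5 RNAi libraries, against 102, 81.4 and 82.9 FPKM in control libraries. Its groups overlapped, with a fold change of -0.10 on the log2 scale (SE 0.18, limma adjusted p 0.729), or -0.46 after median-of-ratios scaling.

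The related ligase gene hrdl-1 had 61.8, 54.2 and 55.6 FPKM in vit-5 RNAi libraries, against 61.6, 35.7 and 43.7 FPKM in control libraries. Control replicate 1 stood well above the other controls and reached the vit-5 RNAi range, and the log2 fold change of hrdl-1 was 0.31 (SE 0.22, limma adjusted p 0.367), or -0.04 after median-of-ratios scaling. Derlins are membrane proteins that help move substrates out of the ER. The derlin gene cup-2 had 145, 129 and 132 FPKM in vit-5 RNAi libraries, against 130, 118 and 135 FPKM in control libraries. It overlapped between the groups (log2 fold change 0.08, limma adjusted p 0.725, and -0.28 after median-of-ratios scaling). The second derlin gene, der-2, averaged 80.9 ± 4.24 FPKM in vit-5 RNAi libraries and 86.5 ± 4.35 FPKM in control libraries (SD, n = 3 each), with a log2 fold change of -0.09 (limma adjusted p 0.682), or -0.45 after median-of-ratios scaling. Of the 5 degradation genes, 1 (sel-1; 20%, against 26.2% of tested genes) was higher with an unadjusted limma p under 0.05 in the deposited FPKM, and their median was 0.08. After median-of-ratios scaling 0 were higher and 2 (sel-11 and der-2) lower, against 12.1% of tested genes lower, with a median of -0.28.

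The oligosaccharyltransferase adds sugar chains to asparagines of entering proteins. Values of its 4 subunit genes overlapped between the groups. In the deposited FPKM ribo-1 had the fold change farthest from 0, and after median-of-ratios scaling it had the one nearest to 0. The ribophorin gene ribo-1 (177456; IV, 6910683 to 6912865) had 199.8, 151 and 145 FPKM in vit-5 RNAi libraries, against 154, 99.97 and 116 FPKM in control libraries. Control replicate 1 lay above 2 of the vit-5 RNAi values, so the groups overlapped. For ribo-1 the log2 fold change was 0.43 (SE 0.21, limma adjusted p 0.219), or 0.07 after median-of-ratios scaling. The OST48 gene ostb-1 (174268; II, 7864507 to 7866255) had 155, 151 and 136 FPKM in vit-5 RNAi libraries, against 184, 153 and 153 FPKM in control libraries. The vit-5 RNAi value of replicate 1 lay inside the control range, with a fold change of -0.14 on the log2 scale (SE 0.15, limma adjusted p 0.539), or -0.51 after median-of-ratios scaling. The small subunit gene dad-1 (172370; I, 6553481 to 6554290) had 367, 340 and 322 FPKM in vit-5 RNAi libraries, against 351, 311 and 310 FPKM in control libraries. These ranges overlapped, and its log2 fold change was 0.08 (SE 0.13, limma adjusted p 0.701), or -0.28 after median-of-ratios scaling. The catalytic subunit gene stt-3 averaged 118 ± 14.3 FPKM in vit-5 RNAi libraries and 122 ± 17.3 FPKM in control libraries (SD, n = 3 each), a log2 fold change of -0.05 (limma adjusted p 0.863), or -0.41 after median-of-ratios scaling. Of the 4 subunit genes, 0 had an unadjusted limma p under 0.05 in the deposited FPKM, where 26.2% of tested genes were higher, and their median was 0.02. After median-of-ratios scaling 2 (stt-3 and ostb-1) were lower, against 12.1% of tested genes, with a median of -0.35.

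COPII vesicles carry folded cargo out of the ER: the GTPase SAR-1 starts the coat, SEC-23 and SEC-24 form its inner layer, and SEC-24 binds cargo. No gene of the 4 separated the groups. In the deposited FPKM 0 of them had an unadjusted limma p under 0.05, where 26.2% of tested genes were higher, and their median was 0.18. After median-of-ratios scaling 2 (sar-1 and sec-23) were lower, against 12.1% of all tested genes, with a median of -0.17. The gene sar-1 (177217; IV, 4511893 to 4513319) had 303, 295 and 337 FPKM in vit-5 RNAi libraries, against 308, 289 and 321 FPKM in control libraries. The groups overlapped, with a fold change of 0.02 on the log2 scale (SE 0.13, 95% interval -0.28 to 0.32, limma adjusted p 0.918), or -0.34 after median-of-ratios scaling. The gene sec-23 (180317; V, 20091263 to 20105685) had 68.1, 73.7 and 59.9 FPKM in vit-5 RNAi libraries, against 75.7, 66.6 and 73.3 FPKM in control libraries. It overlapped too, with a fold change of -0.10 on the log2 scale (SE 0.16, limma adjusted p 0.704), or -0.46 after median-of-ratios scaling. Of the cargo adaptors, sec-24.1 (178078; IV, 11561986 to 11566194) had 33.2, 25.1 and 29.8 FPKM in vit-5 RNAi libraries, against 27.2, 19.96 and 21.7 FPKM in control libraries. The adaptor sec-24.2 (178183; IV, 12355702 to 12360792) had 20.2, 15.3 and 13.9 FPKM in vit-5 RNAi libraries, against 17.5, 10.9 and 9.86 FPKM in control libraries. In both adaptors control replicate 1 lay inside the vit-5 RNAi range. Their log2 fold changes were 0.34 for sec-24.1 (SE 0.20, limma adjusted p 0.292) and 0.37 for sec-24.2 (SE 0.27, limma adjusted p 0.385), or -0.01 and 0.03 after median-of-ratios scaling.

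Ratios of FPKM within a library do not depend on how libraries are scaled. They still carry the differences by transcript length and level that are given further below. The pairs here were chosen after their values were seen and are given without a test. No share of separated ratios over other gene pairs was computed. The ratio of cnx-1 to crt-1 was 0.0885, 0.067 and 0.0614 in vit-5 RNAi libraries, against 0.0555, 0.0355 and 0.0381 in control libraries, so calnexin transcript was higher relative to calreticulin in every vit-5 RNAi library. The ratio of hsp-4 to hsp-3 was 0.552, 0.479 and 0.472 in vit-5 RNAi libraries, against 0.431, 0.355 and 0.455 in control libraries, and the groups just failed to overlap. The ratio of ero-1 to pdi-1 was 0.14, 0.112 and 0.155 in vit-5 RNAi libraries, against 0.107, 0.0624 and 0.0856 in control libraries. Oxidase transcript was thus higher relative to that isomerase in every vit-5 RNAi library. Within the oligosaccharyltransferase, the ratio of ribo-1 to ostb-1 was 1.29, 0.996 and 1.07 in vit-5 RNAi libraries, against 0.835, 0.655 and 0.759 in control libraries, without overlap. The ratio of der-2 to cup-2 was lower in every vit-5 RNAi library, at 0.533, 0.621 and 0.65, against 0.686, 0.689 and 0.658 in control libraries. Ratios of ire-1 to xbp-1 (0.0603 to 0.131 in vit-5 RNAi, 0.055 to 0.0973 in control libraries) and of sec-24.1 to sec-23 (0.34 to 0.497 and 0.296 to 0.359) overlapped.

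Transcript length and level went along with these differences. The 12875 tested genes with an annotated length were divided into 4 groups of near-equal size by length. Median log2 fold changes were 0.16 in the group with the shortest transcripts, 0.27 and 0.40 in the next groups and 0.51 in the group with the longest. In the longest group, 41.1% of all genes were higher at an unadjusted limma p under 0.05, against 10.7% in the shortest. Of the 32 genes, 18 fall in the longest group, with a median of 0.41, and 9 of the 10 genes that were higher at that threshold are among them. With tested genes divided into 4 groups by mean level, 21 of the 32 fall in the highest, where the median was 0.02 for the 21 and 0.06 for all genes. The 7 genes in the group below had a median of 0.48, against 0.38 for all genes there, and the 4 in the second lowest (pek-1, atf-6, T14G8.3 and uggt-1) had 0.95, against 0.48. Across the 32 genes Spearman's rho of the log2 fold change was 0.50 with length and -0.68 with level, as a description over genes measured in the same libraries, and length and level were themselves related (rho -0.66). Across all tested genes with a length the values were 0.33 and -0.34.

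With the trend of each library against transcript length removed, the 4 genes pek-1 (0.56), atf-6 (0.50), T14G8.3 (0.46) and cnx-1 (0.30) were higher at an unadjusted limma p under 0.05, the same 4 as after median-of-ratios scaling. That is 12.5% of the list, against 7.47% of tested genes. Lower at that threshold were 9 genes (28.1%, against 10.2%), of which 8 were also lower after median-of-ratios scaling. The log2 fold change of ire-1 was then 0.27, of enpl-1 0.05 and of uggt-1 0.02. This alternative was added after the data were seen, and 0 genes passed its adjusted threshold.

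**Figure D3:**
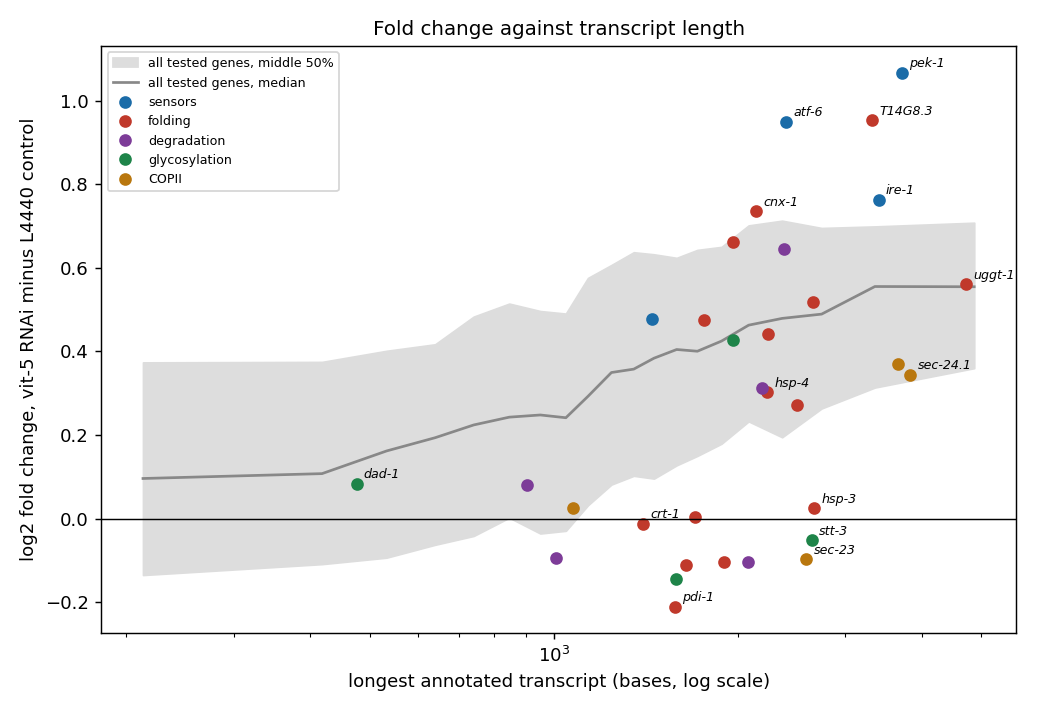
Log2 fold change (vit-5 RNAi minus L4440 control) against the length of the longest annotated transcript (log axis) for the 32 genes, coloured by role, over the median and middle 50% of all tested genes in 20 bins of length. The grey median climbs with length, pek-1, atf-6, T14G8.3, ire-1 and cnx-1 lie above the grey band, and hsp-3, stt-3 and sec-23 lie below it among the longer transcripts.

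The secretory load itself was not measured, and only transcript levels of its cargo were compared. The 6 vitellogenins summed to 7854, 7707 and 3512 FPKM in vit-5 RNAi libraries, against 12156, 6733 and 7893 FPKM in control libraries. The 32 ER genes summed to 5891, 5451 and 6124 FPKM in vit-5 RNAi libraries, against 5479, 5405 and 5923 FPKM in control libraries. Both sums overlapped between the groups. Of the vitellogenins, vit-3 and vit-4 are close relatives of vit-5. Whether reads are shared among them was not tested, nor was the cause of their lower values. For vit-3 the values were 62.5, 28.8 and 5.66 FPKM in vit-5 RNAi libraries, against 1003, 559 and 510.1 FPKM in control libraries. Likewise vit-4 had 45.8, 21.8 and 3.997 FPKM in vit-5 RNAi libraries, against 1260.1, 656 and 567 FPKM in control libraries. The more distant vit-6 had 4925, 5594 and 2433 FPKM in vit-5 RNAi libraries, against 3537, 2007 and 2567 FPKM in control libraries, and its groups overlapped. The 32 genes took 0.495% ± 0.0396 of the FPKM sum in vit-5 RNAi libraries and 0.458% ± 0.0199 in control libraries (SD, n = 3 each). Folding genes made up most of it, with 3995 ± 308 FPKM in vit-5 RNAi libraries and 3923 ± 303 FPKM in control libraries (SD, n = 3 each).

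Of the collagen cargo, rol-6 and dpy-13 varied widely among libraries of 1 group, while sqt-3 did not. Values of dpy-13 were 5.92, 55.6 and 350 FPKM in vit-5 RNAi libraries, against 6.52, 234 and 275 FPKM in control libraries. Some but not all enzymes that modify collagen ranked the libraries in the order of rol-6. In vit-5 RNAi replicate 3, the library with the highest rol-6 FPKM, pdi-2 had 787 FPKM, while the vit-5 RNAi libraries with less rol-6 had 575 and 603 FPKM. In control libraries pdi-2 had 590 FPKM where rol-6 was lowest and 750 (749.9) and 764 FPKM in the others. The alpha subunits of prolyl 4-hydroxylase, named after their values were seen, followed the same order, while let-268, the collagen lysyl hydroxylase gene, did not (5.90, 5.20 and 5.80 FPKM in vit-5 RNAi libraries, against 3.39, 3.12 and 2.73 FPKM in control libraries). Of the 78 further pathway genes, 6 (7.69%, against 10.5% of all tested genes) had the order of rol-6: dpy-18, phy-2, cyn-6, fkb-4, algn-5 and erd-2.1. The subunit gene phy-2 had 10.9, 16.4 and 67.2 FPKM in vit-5 RNAi libraries, against 7.27, 13.8 and 24.8 FPKM in control libraries, and dpy-18 had 32.6, 40.8 and 67.6 FPKM, against 39.8, 47.1 and 63.6 FPKM. The 32 genes as a whole did not share this order. Only pdi-2 and crt-1 (6.25%) ranked the libraries as rol-6 did within both groups, against 10.5% of all tested genes, and dad-1 and sec-24.2 (6.25%) ranked them in reverse, against 6.79% of all tested genes. The adult collagen col-19 was lowest in vit-5 RNAi replicate 3 (30.1 FPKM) and control replicate 3 (80.2 FPKM). Hypodermal markers (rol-6, dpy-7 and col-19, none at 0) summed to 174 to 321 FPKM in vit-5 RNAi libraries and 199 to 336 FPKM in control libraries. Germline markers summed to 1342 to 2398 and 2164 to 2729 FPKM, and muscle markers to 114 to 227 and 102 to 176 FPKM, in the same order, and their part in these results was not tested.

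**Figure D4:**
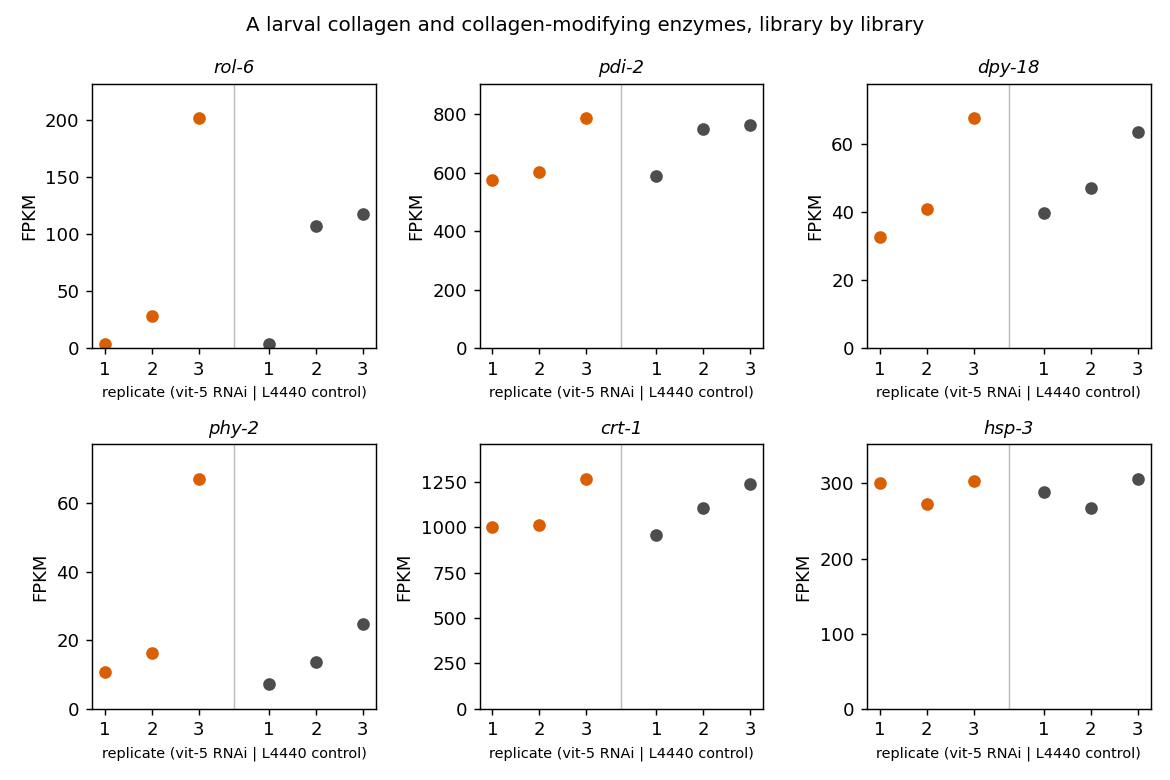
FPKM of the larval collagen rol-6, the prolyl 4-hydroxylase genes pdi-2, dpy-18 and phy-2, calreticulin crt-1 and the BiP gene hsp-3 in each library, vit-5 RNAi at the left and L4440 control at the right of each panel, with axes from 0. Within each group pdi-2, dpy-18, phy-2 and crt-1 rank the libraries as rol-6 does, whereas hsp-3 stays between 267 and 306 FPKM. That order is found for 6.25% of the 32 genes and 10.5% of all tested genes, and let-268, which lacks it, is not drawn.

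Other genes of the same pathways were read from 5 further lists, 78 genes in all, all of which passed the filter. By limma 0 had an adjusted p under 0.05. With an unadjusted limma p under 0.05, 13 were higher (16.7%, against 26.2% of tested genes) and 0 lower (against 0.906%). After median-of-ratios scaling 3 were higher (3.85%, against 9.23%) and 28 lower (35.9%, against 12.1%). Among 14 further folding genes, 5 (35.7%, against 26.2%) were higher at that threshold as deposited, with a median log2 fold change of 0.46. After median-of-ratios scaling 3 were higher and 2 lower (21.4% and 14.3%, against 9.23% and 12.1% of tested genes), with a median of 0.13. The one with the smallest p was C14B9.2, annotated beside the values as a probable protein disulfide isomerase A4. It had 24.7, 18.4 and 35.2 FPKM in vit-5 RNAi libraries, against 11.8, 11.9 and 14.2 FPKM in control libraries, with 0.95 as log2 fold change (SE 0.26, limma adjusted p 0.122), or 0.61 after median-of-ratios scaling. The largest fold change of that list, named after its values were seen, was that of T24H7.2, annotated as uncharacterized, which averaged 26.8 ± 10.1 FPKM in vit-5 RNAi libraries and 12.6 ± 3.23 FPKM in control libraries (SD, n = 3 each).

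The translocation list lay at the other end. Its 14 genes act where new chains enter the ER and include those of the Sec61 channel, the signal peptidase and the translocon-associated proteins. Their median log2 fold change was -0.12, and 2 were higher at an unadjusted limma p under 0.05 (14.3%, against 26.2% of tested genes). Of the 14, 4 had all vit-5 RNAi values below all control values (28.6%, against 3.15% of tested genes). They are named here after their values were seen: trap-1, trap-2, trap-3 and spcs-2. After median-of-ratios scaling 10 of the 14 (71.4%, against 12.1% of tested genes) were lower at that threshold, and with the length trend removed 6 were (42.9%, against 10.2%). This list also had the shortest transcripts, with a median of 706 bases, against 2165 bases for the 32 genes. Degradation cofactors (14 genes), sugar-chain assembly genes (14) and coat and retrieval genes (22) had medians of 0.06, 0.26 and 0.19. Their smallest p belonged to marc-6, a membrane ubiquitin ligase (0.60, limma adjusted p 0.168), algn-6, a glucosyltransferase of the lipid-linked sugar (0.81, adjusted p 0.136), and cope-1, a subunit of the COPI coat (0.37, adjusted p 0.163).

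Annotated exons of 9 of the 32 genes share bases with another gene, from 0.118% of the exon bases of ire-1 to 7.40% of those of cup-2. Strand use in counting is not given, so reads in those stretches cannot be assigned with certainty.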

How the data were processed

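RNA-seq was read from 6 libraries. Per the file headers, the values are FPKM, which the authors computed for every gene before deposit. Bowtie2 2.2.3, TopHat2 2.0.12, TopHat, HTSeq 0.6.1, DESeq 1.18.0 and the build WBcel235 are named in the submitters' processing notes, without their roles. The planned test assumed counts. Only FPKM were given, so limma 3.58.1 in R 4.3.3 was run on log2(FPKM + 1) with an intensity trend, over 12908 genes with 1 FPKM or more in 3 or more libraries, with Benjamini-Hochberg adjustment at 0.05, and the script was tested on simulated data. Levels between genes are compared per length, as FPKM. The rough depths, 16900000 to 21200000 fragments, come from the spacing of low values, and counts could not be recovered.

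Gene names were matched to the files, der-2 by its gene ID, and 3 listed names did not match. Members and lists were chosen with earlier results of these data known. Each role's named genes are the sensors and their effector, the BiP pair, the 2 most abundant and the 2 with the smallest p. The others are given by mean ± SD. The further lists give their gene with the smallest p, except that of 1 list, which is not reported here. Coordinates and transcript lengths come from the reference annotation of WBcel235, and sequences were not used here. Alternatives were median-of-ratios and upper-quartile scaling, another pseudocount, no filter, a replicate block and each library left out. Removal of each library's trend with length was added after the data were seen.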

Additional observations from a re-analysis of the deposited data

How the results depend on the processing

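With a pseudocount of 0.1 or no filter, all 32 genes kept their direction and stayed above an adjusted limma p of 0.05. After median-of-ratios scaling 4 members were higher and 9 lower at an unadjusted limma p under 0.05, with a median of -0.051. Of the 12908 tested genes 1192 were higher and 1558 lower. After upper-quartile scaling 5 and 6 members were, against 1634 and 1119 tested genes, with a members' median of 0.027. With the length trend removed the members' values were 4, 9 and -0.14, against 962 higher and 1308 lower of 12875 tested genes. Of all genes higher or lower at that threshold, 96.7% were higher as deposited, 43.3% after median-of-ratios and 59.4% after upper-quartile scaling. The cause was not tested.

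Signs reversed for 9 genes under median-of-ratios scaling: hsp-3 (-0.34), hsp-4 (-0.058), dnj-27 (-0.066), pdi-3 (-0.36), hrdl-1 (-0.045), cup-2 (-0.28), dad-1 (-0.28), sar-1 (-0.34) and sec-24.1 (-0.0051). Upper-quartile scaling reversed hsp-3 (-0.26), pdi-3 (-0.28), cup-2 (-0.20), dad-1 (-0.20) and sar-1 (-0.26). Removing the length trend reversed hsp-3 (-0.44), hsp-4 (-0.14), dnj-27 (-0.19), pdi-3 (-0.39), hrdl-1 (-0.12), cup-2 (-0.17), dad-1 (-0.042), sar-1 (-0.26), sec-24.1 (-0.17) and sec-24.2 (-0.14).

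Leaving out each library in turn, 0 to 5 of all tested genes passed the adjusted threshold (4 with vit-5 RNAi replicate 1 left out and 5 with replicate 3 of that group left out). At the unadjusted one 5 to 14 members were higher (5 without vit-5 RNAi replicate 1 or control replicate 2). Of the 12908 tested genes, 1444 (without control replicate 2) to 3860 (without control replicate 1) were higher. The members' median ran from 0.16 (without control replicate 2) to 0.41. Signs reversed for hsp-3 (-0.026 to 0.073), pdi-3 (-0.040 to 0.070), crt-1 (-0.12 to 0.078), sel-11 (-0.19 to 0.030), stt-3 (-0.13 to 0.060) and sar-1 (-0.032 to 0.064).

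Deviations of same-numbered libraries correlated at 0.75, 0.03 and 0.68, and vit-5 RNAi replicate 2 correlated best with control replicate 1 (0.23). Those of vit-5 RNAi replicate 1 and control replicate 3 correlated at -0.64, and of vit-5 RNAi replicate 3 and control replicate 1 at -0.71. The numbers were not taken as pairs in the main fit, and the count past the adjusted threshold depends on that choice. With a replicate block 3806 of the 12908 tested genes (29.5%) passed the adjusted limma threshold (3679 higher, 127 lower). Among them were 13 of the 32 members, all higher. At the unadjusted threshold 16 of the 32 members were higher, against 5406 of the 12908 tested genes.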
